A study of Mus musculus with 12 samples.

Results

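In male mice the pituitary releases growth hormone in pulses, whereas in females the release is nearly continuous. Each pulse activates the receptor-bound kinase JAK2 and then the transcription factor STAT5b in hepatocytes, and a set of liver genes that depends on these pulses is expressed mainly in males. The genes described here are 9 of that set: Hsd3b5, Slco1a1, Cyp4a12a, Ugt2b1, Elovl3, Mup20, Cyp2d9, Selenbp2 and Serpina1e. Their products metabolise steroids, take up organic anions, process fatty acids or are secreted.

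Members were the non-control probes that carry one of these 9 gene names on the array. A probe of the name was found for 8 of the 9 genes, and these 8 had 10 probes in all, among 55681 probes on the array. All 8 passed the filter on dim probes and are among the 18104 genes tested. No probe carries the name Selenbp2.

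RNA came from livers of F2 male C3H/HeN mice about 74 weeks old and was hybridised to 12 Agilent 1-color arrays. In the arsenite line, pregnant F0 mice received 85 ppm sodium arsenite in their drinking water between days 8 and 18 of pregnancy, and in the control line they drank plain tap water. Neither the F1 mice, mated at 10 weeks, nor the F2 mice were given arsenite. The 4 groups have 3 arrays each: tumors of the arsenite line, non-tumor liver of the arsenite line, normal liver of the arsenite line, and non-tumor liver of the control line. The labels do not say whether the 3 numbered samples of a group, or the tumor and non-tumor samples of equal number, came from separate mice, so p-values measure the spread between these samples. Normal liver and tumors of the control line were not analysed here.

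Levels are log2 intensities minus the 75th percentile of the same array, so a level of 0 is the brightness that 75% of the spots do not reach. A gene was called changed when its adjusted p was under 0.05 in 1 limma fit of all 12 arrays. Probe levels are not compared between genes. The tumors lie on a slide of their own, as do the normal livers, whereas both non-tumor groups share a slide. Slide and group therefore cannot be told apart in every comparison except arsenite against control non-tumor liver. The median difference of 7 spike-in transcripts was 0.18 between tumors and non-tumor liver and -0.09 between tumors and normal liver on the log2 scale. In tissue RNA, fewer cells of a type and less RNA per cell cannot be told apart.

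The labels of the tissue were checked first. The fetal and tumor genes Afp, H19 and Gpc3 were at least 2005-fold, 839-fold and 243-fold higher in tumors than in non-tumor liver, where none was well above background on any array. Alb, the main plasma protein made by hepatocytes, stayed bright on every array. It averaged 10.74 ± 0.12 in tumors and 10.79 ± 0.07 in non-tumor liver (SD, n = 3 each), and the difference was -0.05 ± 0.11 (SE), adjusted p = 0.72. Over all genes tested the median difference was -0.13 between tumors and non-tumor liver and -0.15 between tumors and normal liver on the log2 scale.

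The stretch of 250 bases before the transcription start is shown for the 3 members with an entry in the promoter table and the largest changes in tumors. RefSeq (GRCm38.p6) held an entry for 6 of the 9 members, namely Hsd3b5, Slco1a1, Ugt2b1, Cyp2d9, Selenbp2 and Serpina1e. Each sequence is given 5′ to 3′ on the strand of the gene, which is the minus strand for all 3, with matches to the searched motifs in capitals. The positions are chr3:98645535-98645784 for Hsd3b5, chr6:141946963-141947212 for Slco1a1 and chr5:86926504-86926753 for Ugt2b1.
Hsd3b5: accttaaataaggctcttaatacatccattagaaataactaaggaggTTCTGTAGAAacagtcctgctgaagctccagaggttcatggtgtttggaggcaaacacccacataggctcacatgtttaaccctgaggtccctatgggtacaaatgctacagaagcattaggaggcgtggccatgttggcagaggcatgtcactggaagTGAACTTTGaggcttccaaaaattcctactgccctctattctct
Slco1a1: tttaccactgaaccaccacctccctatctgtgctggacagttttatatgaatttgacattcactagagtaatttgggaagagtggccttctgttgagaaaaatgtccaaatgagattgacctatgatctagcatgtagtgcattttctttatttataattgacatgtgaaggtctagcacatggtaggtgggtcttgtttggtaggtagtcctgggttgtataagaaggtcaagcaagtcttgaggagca
Ugt2b1: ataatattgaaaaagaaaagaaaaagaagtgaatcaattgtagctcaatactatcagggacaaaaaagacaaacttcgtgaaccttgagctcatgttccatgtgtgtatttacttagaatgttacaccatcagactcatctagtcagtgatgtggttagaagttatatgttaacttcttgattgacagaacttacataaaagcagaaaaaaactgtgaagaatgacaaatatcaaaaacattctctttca
The motifs searched on both strands were TTCNNNGAA, the core bound by STAT5, the same core with a spacer longer by 1 base, and CAAAGTCCA and CAAAGTTCA, which the liver factor HNF4A can bind. Their choice was made partly with these windows in view. In the Hsd3b5 stretch the longer-spacer core begins 203 bases before the start, and TGAACTTTG, which is CAAAGTTCA on the other strand, begins 44 bases before the start. The other 5 member stretches held none of these motifs. Among 32851 promoter windows of the same length, 7.02% held TTCNNNGAA, 5.85% the core with the longer spacer, 0.384% CAAAGTCCA and 0.335% CAAAGTTCA.

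In tumors, all 8 measured members were lower than in non-tumor liver and lower than in normal liver of the arsenite line. Against non-tumor liver, the log2 differences of Hsd3b5, Elovl3 and Slco1a1 were -6.65, -6.28 and -6.23, those of Cyp4a12a and Ugt2b1 -5.48 and -3.93, and those of Cyp2d9, Mup20 and Serpina1e -2.04, -1.28 and -0.36. Calls for a lower level were made for 8 of 8 members against non-tumor liver, where 30% of all genes tested were called lower, and for 8 of 8 against normal liver, where 31% were. With the replicate number as a block in the 2 groups alone, 6 were called against non-tumor liver, and Mup20 (adjusted p = 0.13) and Serpina1e (adjusted p = 0.086) were not. No overlap with the tumors was seen for 7 of 8 members against non-tumor liver and for 8 of 8 against normal liver, where 35.9% and 37.7% of all genes were lower without overlap. The median over the 8 was -4.71 against non-tumor liver and -4.91 against normal liver. Only 0.619% of all genes were both called and at least 16-fold lower against non-tumor liver, and 0.635% were so against normal liver. Both comparisons use the same 3 tumor arrays, and non-tumor liver of the arsenite line enters 3 of the 4 comparisons made here.

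**Figure D1:**
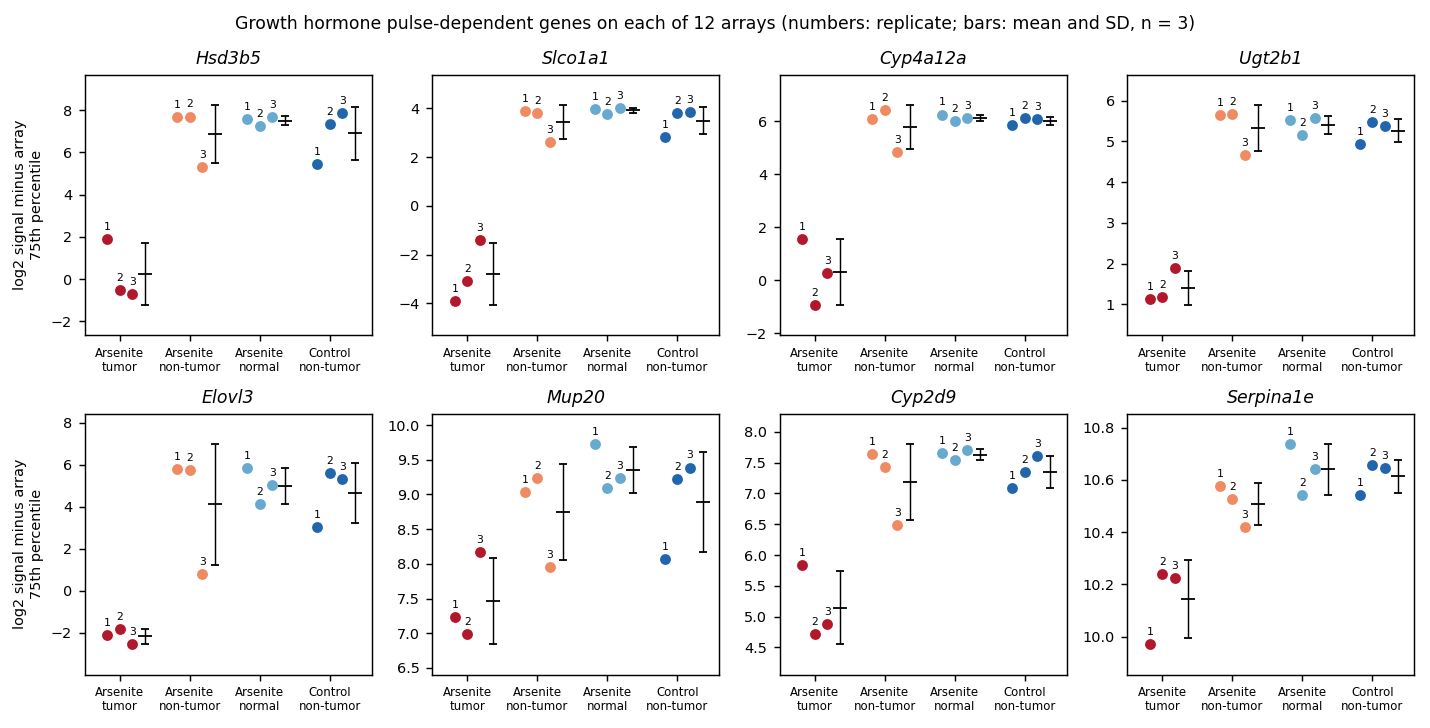
Level of each of the 8 measured members on the 12 arrays, as log2 signal minus the 75th percentile of the array, by group and replicate number, with the mean and SD of each group (n = 3) to the right of its points; the vertical scale differs between panels. Tumors lie below every other array for 7 members, whereas for Mup20 tumor 3 at 8.17 lies above the non-tumor samples 3 of the arsenite line (7.95) and 1 of the control line (8.07), and non-tumor sample 3 of the arsenite line is the lowest array outside the tumors in all 8 panels.

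The members Hsd3b5, Cyp2d9 and Ugt2b1 metabolise steroids and other lipophilic compounds. Hsd3b5 encodes a male-specific ketosteroid reductase of the 3-beta-hydroxysteroid dehydrogenase family, and its probe lies at chr3:98422576-98422635 (mm9). Its level was 1.92, -0.51 and -0.71 in tumors, 7.66, 7.69 and 5.29 in non-tumor liver, 7.56, 7.24 and 7.66 in normal liver and 5.45, 7.35 and 7.87 in control non-tumor liver. No tumor overlapped with a liver array, although the tumors differed among themselves and the first was the highest. The mean was 0.24 ± 1.46 in tumors and 6.88 ± 1.37 in non-tumor liver (SD, n = 3 each). The difference was -6.65 ± 0.86 (SE; adjusted p = 0.00013), a 100.1-fold lower signal, and against normal liver it was -7.25 ± 0.86 (adjusted p = 7.6e-05). With any 1 array left out it stayed between -7.49 and -6.17 against non-tumor liver, the lower end without tumor 1, and it was -7.44 without non-tumor sample 3.

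Cyp2d9 encodes a male-biased cytochrome P450 that hydroxylates testosterone, and its probe lies at chr15:82285582-82285641 (mm9). Its level was 5.83, 4.72 and 4.88 in tumors, 7.64, 7.43 and 6.48 in non-tumor liver, 7.65, 7.53 and 7.70 in normal liver and 7.09, 7.35 and 7.61 in control non-tumor liver. The groups did not overlap, but tumor 1 came within 1 log2 unit of non-tumor sample 3. The difference was -2.04 ± 0.33 against non-tumor liver (SE; adjusted p = 0.00057), a 4.11-fold lower signal, and -2.48 ± 0.33 against normal liver (adjusted p = 0.00016).

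Ugt2b1 encodes a glucuronosyltransferase, which makes its substrates water-soluble for excretion, and its probe lies at chr5:87346310-87346369 (mm9). Its level was 1.13, 1.19 and 1.89 in tumors, 5.66, 5.67 and 4.68 in non-tumor liver, 5.52, 5.16 and 5.57 in normal liver and 4.95, 5.47 and 5.38 in control non-tumor liver. The tumors were closer together than for Hsd3b5, and all lay far below the liver arrays. The difference was -3.93 ± 0.29 against non-tumor liver (SE; adjusted p = 3.4e-06), a 15.3-fold lower signal, and -4.01 ± 0.29 against normal liver.

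Slco1a1 encodes OATP1A1, a transporter that takes organic anions from the blood into hepatocytes, and its probe lies at chr6:141856493-141856552 (mm9). Its level was -3.90, -3.10 and -1.39 in tumors, 3.89, 3.81 and 2.61 in non-tumor liver, 3.95, 3.77 and 4.0 in normal liver and 2.84, 3.79 and 3.84 in control non-tumor liver. Tumor 1, the lowest, was not well above background, so the gene was measured on 2 of 3 tumor arrays. The difference was -6.23 ± 0.57 against non-tumor liver (SE; adjusted p = 1.4e-05), a 75.2-fold lower signal. Without tumor 1 it was -5.68, and without tumor 3, the highest of the tumors, -6.94. Against normal liver it was -6.70 ± 0.57.

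Elovl3 and Cyp4a12a act on fatty acids. Elovl3 elongates very long saturated and monounsaturated fatty acids, and its probe lies at chr19:46209762-46209821 (mm9). Its level was -2.11, -1.83 and -2.55 in tumors, 5.81, 5.75 and 0.79 in non-tumor liver, 5.85, 4.15 and 5.04 in normal liver and 3.04, 5.63 and 5.34 in control non-tumor liver. The tumors were alike, whereas non-tumor sample 3 lay below all other livers and above all tumors. The difference was -6.28 ± 1.20 against non-tumor liver (SE; adjusted p = 0.0016), a 77.6-fold lower signal, and -7.17 ± 1.20 against normal liver (adjusted p = 0.00072). Leaving out non-tumor sample 3 moved the first of these to -7.94, and leaving out non-tumor sample 1 or 2 moved it to -5.43 or -5.46.

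Cyp4a12a is a male-specific omega-hydroxylase of arachidonic acid, and its probe lies at chr4:115005258-115005317 (mm9). Its level was 1.57, -0.93 and 0.29 in tumors, 6.09, 6.44 and 4.84 in non-tumor liver, 6.26, 6.0 and 6.12 in normal liver and 5.86, 6.14 and 6.08 in control non-tumor liver. No tumor overlapped with a liver array. The difference was -5.48 ± 0.55 against non-tumor liver (SE; adjusted p = 2.4e-05), a 44.6-fold lower signal, and -5.82 ± 0.55 against normal liver. The first of these was -6.11 without tumor 1 and -4.86 without tumor 2. The annotation gives this probe to both Cyp4a12a and its near-identical neighbor Cyp4a12b, and a separate probe named for Cyp4a12b differed by -5.46 ± 0.58, so the signals of these genes may be shared. For Cyp4a12b it was -6.16 without tumor 1 and -4.83 without tumor 2.

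Mup20 encodes darcin, a major urinary protein that acts as a male pheromone, and it had 2 probes on chromosome 4 that differed in size of change. The one with the higher mean over the 12 arrays, which stands for the gene, lies at chr4:61711407-61711466 (mm9) and read 7.24, 6.98 and 8.17 in tumors, 9.04, 9.24 and 7.95 in non-tumor liver, 9.73, 9.09 and 9.24 in normal liver and 8.07, 9.22 and 9.39 in control non-tumor liver. Here tumor 3 exceeded non-tumor sample 3 and control non-tumor sample 1, so these groups overlap. The difference was -1.28 ± 0.44 against non-tumor liver (SE; adjusted p = 0.036) and -1.89 ± 0.44 against normal liver (adjusted p = 0.0054). The first call is not firm: with the replicate number as a block in the fit of 12 arrays adjusted p was 0.061, with the block in the 2 groups alone it was 0.13, and leaving out non-tumor sample 1 or 2 or tumor 1 or 2 gave 0.11, 0.12, 0.097 and 0.12.

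The other Mup20 probe, at chr4:61713671-61713730 (mm9), read 5.28, 5.08 and 6.88 in tumors, 9.32, 9.25 and 9.01 in non-tumor liver, 9.51, 9.33 and 9.12 in normal liver and 9.07, 9.32 and 9.20 in control non-tumor liver. Its mean was lower in tumors (5.75, against 7.46 on the first probe) but higher in non-tumor liver (9.19, against 8.74) and in control non-tumor liver (9.20, against 8.89), so the choice by mean signal took the probe with the smaller difference. On this second probe all tumors lay below all livers, and non-tumor sample 3 was close to the other livers. The difference was -3.44 ± 0.37 against non-tumor liver (SE; p adjusted over 24148 probes = 4.5e-05), a 10.9-fold lower signal. Mup genes are close copies of one another, so each probe may also read other family members.

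Serpina1e encodes a member of the alpha-1-antitrypsin family, secreted protease inhibitors of the plasma. Its level was 9.97, 10.24 and 10.22 in tumors, 10.58, 10.53 and 10.42 in non-tumor liver, 10.74, 10.54 and 10.64 in normal liver and 10.54, 10.65 and 10.65 in control non-tumor liver, on a probe at chr12:105185172-105185231 (mm9). The groups did not overlap, but the gap was small. The difference was -0.36 ± 0.10 against non-tumor liver (SE; adjusted p = 0.012), a 1.29-fold lower signal, and -0.50 ± 0.10 against normal liver (adjusted p = 0.0021). A second probe, at chr12:105185290-105185349, gave -0.38 ± 0.11. The call against non-tumor liver was lost with quantile normalization (-0.11, adjusted p = 0.17) and with the replicate block in the 2 groups alone (adjusted p = 0.086).

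Selenbp2 encodes a selenium- and acetaminophen-binding protein. The single probe named Selenbp1 is annotated with accessions of both Selenbp1 and Selenbp2, so its signal cannot be assigned to either. It read 6.68, 6.92 and 7.24 in tumors, 7.68, 7.63 and 7.62 in non-tumor liver, 8.18, 7.87 and 8.04 in normal liver and 7.78, 7.58 and 7.90 in control non-tumor liver. The difference was -0.70 ± 0.14 against non-tumor liver (SE; adjusted p = 0.0027).

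**Figure D2:**
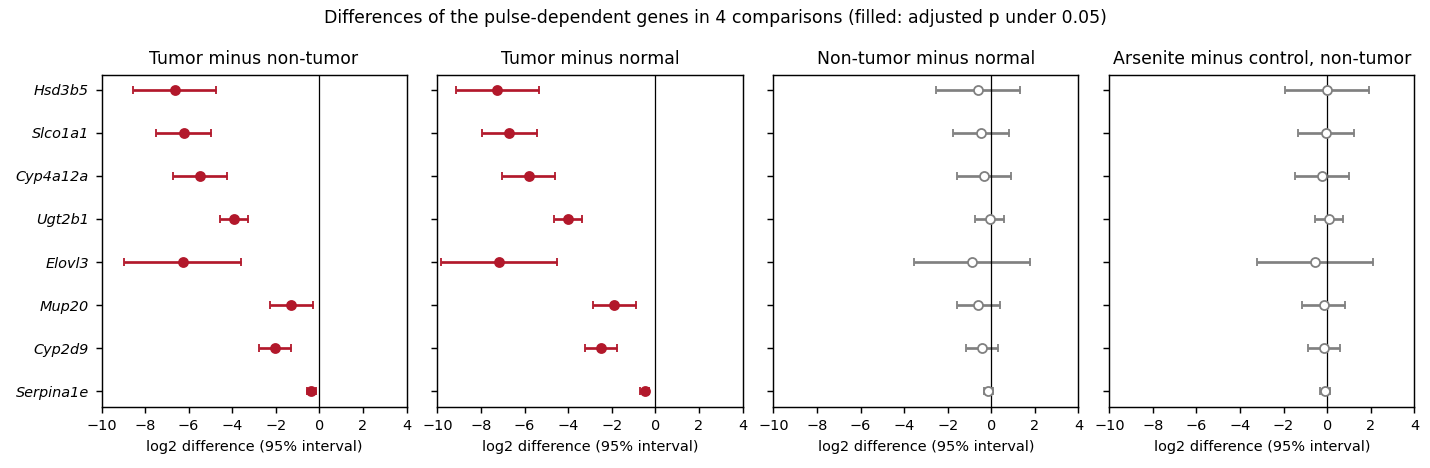
Log2 difference of each of the 8 measured members in the 4 comparisons, with the 95% interval of the limma fit of 12 arrays; filled red points have an adjusted p under 0.05 and open gray points do not. All 8 lie below 0 in both tumor comparisons, from -6.65 (Hsd3b5) to -0.36 (Serpina1e) against non-tumor liver, and all 8 intervals include 0 in both comparisons between livers.

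The members differed in how far the tumors scattered, and so did the liver groups. Hsd3b5, Slco1a1 and Cyp4a12a had SDs of 1.46, 1.28 and 1.25 between tumors, against 1.37, 0.71 and 0.84 between non-tumor livers, 0.22, 0.12 and 0.13 between normal livers and 1.27, 0.56 and 0.15 between control non-tumor livers (n = 3 each). For Hsd3b5 the tumors thus scattered about as much as both non-tumor groups. No tumor was the lowest for all members. Tumor 1 held the highest tumor level of Hsd3b5, Cyp4a12a and Cyp2d9, whereas tumor 3 held the highest of Slco1a1, Ugt2b1 and Mup20.

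Between livers, none of the 8 members was called. In the arsenite line, non-tumor liver against normal liver gave differences from -0.90 ± 1.20 (SE) for Elovl3 to -0.08 ± 0.29 for Ugt2b1, with adjusted p between 0.84 and 0.99 and a smallest unadjusted p of 0.20. All 8 were below 0, with a median of -0.46, and 9057 of the 18104 genes tested were below 0. The 8 values share the same arrays, and non-tumor sample 3 was the lowest of its group for all 8. In this comparison limma called 0% of all genes, and 6.84% had an unadjusted p under 0.05. The 95% intervals were wide for some genes, -3.57 to 1.78 for Elovl3 and -2.52 to 1.30 for Hsd3b5, and narrow for Serpina1e, -0.35 to 0.09. Without non-tumor sample 3, the values of Elovl3, Ugt2b1, Hsd3b5 and Cyp4a12a turned to 0.77, 0.25, 0.19 and 0.14, none of them called.

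Arsenite line against control line, in non-tumor liver, was the one comparison within a slide. Differences ranged from -0.55 ± 1.20 (SE) for Elovl3 to 0.07 ± 0.29 for Ugt2b1, with a median of -0.13, every adjusted p rounded to 1.0 and a smallest unadjusted p of 0.31. Of all genes tested 0.00552%, which is 1 gene, was called, and 5.63% had an unadjusted p under 0.05. The 95% interval was -1.92 to 1.90 for Hsd3b5 and -1.32 to 1.22 for Slco1a1. For all 8 members, tumors thus had the lowest mean level and normal liver the highest, and the order among the 3 liver groups rests on differences that were not called.

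Single liver arrays departed from their groups in the same direction for all members. Non-tumor sample 3 of the arsenite line was the lowest of its group for 8 of 8 members, with a median of -1.21 log2 units relative to the mean of the other 2 arrays, and 43.7% of all genes tested were lowest on that array. The departure was -4.99 for Elovl3, -2.38 for Hsd3b5 and -1.23 for Slco1a1. It was more than 1 log2 unit for 6 of 8 members, against 1.62% of all genes. Control non-tumor sample 1 was also the lowest of its group for 8 of 8, with a median of -0.73, with departures of -2.45 for Elovl3 and -2.16 for Hsd3b5 (44.8% of all genes were lowest there). Normal sample 2 was the lowest for 8 of 8 as well, with a median of -0.29 (34.3% of all genes). Over the 9 liver arrays the SD of Elovl3 was 1.71 and that of Hsd3b5 0.99, larger than for 99.9% and 99.1% of all genes, against a median of 0.18 over all genes and 0.09 for Serpina1e.

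Other genes that differ between male and female liver were followed on the same arrays. The 13 other male-biased genes tested include Cyp4a12b, whose signal may be shared with the member Cyp4a12a. Of these 13, 12 were lowest of the group on arsenite non-tumor sample 3, 12 on control non-tumor sample 1 and 11 on normal sample 2. Of 13 female-biased genes tested, 9, 9 and 7 were highest on these arrays, where 27.7%, 31.3% and 35.3% of all genes were highest. On control non-tumor sample 1 the highest include Sult2a2, Sult2a1 and Abcd2, with dim signals of -2.98, -5.05 and -4.89. On arsenite non-tumor sample 1 similar signals of these genes, -2.99, -4.99 and -5.22, were not well above background. The count on the control array may therefore partly rank dim signals. On arsenite non-tumor sample 3 the female-biased cytochrome P450 genes Cyp2b13, Cyp3a44 and Cyp2b9 stood 6.38, 5.07 and 4.87 log2 units above the other 2 arrays. These genes were picked after their values were seen. The other 2 arrays were dim for Cyp2b13, at -5.23 and -3.22. On the same sample Sult2a2, Ntrk2, Sult2a1 and Abcd2 departed by -0.815, -0.69, -0.208 and -0.116. On control non-tumor sample 1 Cyp2b13 and Cyp2b9 departed by -2.55 and -0.78, and Cyp3a44 by 1.91. The female-biased genes A1bg and Sult3a1 did not pass the filter. They were well above background on 1 of 12 arrays each, and that array was arsenite non-tumor sample 3. Cyp4a14 and Cyp4a10, listed as relatives of Cyp4a12a and also picked after their values were seen, were highest of their group on the same arrays. They read 6.38 and 7.885 on arsenite non-tumor sample 3, against -1.60 and -1.22 for Cyp4a14 and 4.002 and 4.17 for Cyp4a10 on the other 2. They read 3.24 and 6.57 on control non-tumor sample 1 and 0.615 and 5.12 on normal sample 2.

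On arsenite non-tumor sample 3, Ghr and Igf1 lay within 0.10 log2 units of the other 2 arrays (-0.10 and -0.01) and the median departure of the 15 growth hormone signaling genes was 0.03. Cish and Socs2, both inhibitors induced by STAT5, departed by -2.57 and 0.53. On control non-tumor sample 1 Cish departed by 0.94 and Socs2 by -0.73, so neither moved the same way on both arrays. The summed signal of 9 hepatocyte markers was 3490.0 on arsenite non-tumor sample 3, against 4080.5 and 3921.2 on the other 2 arrays of its group, and its part in these values was not tested.

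**Figure D3:**
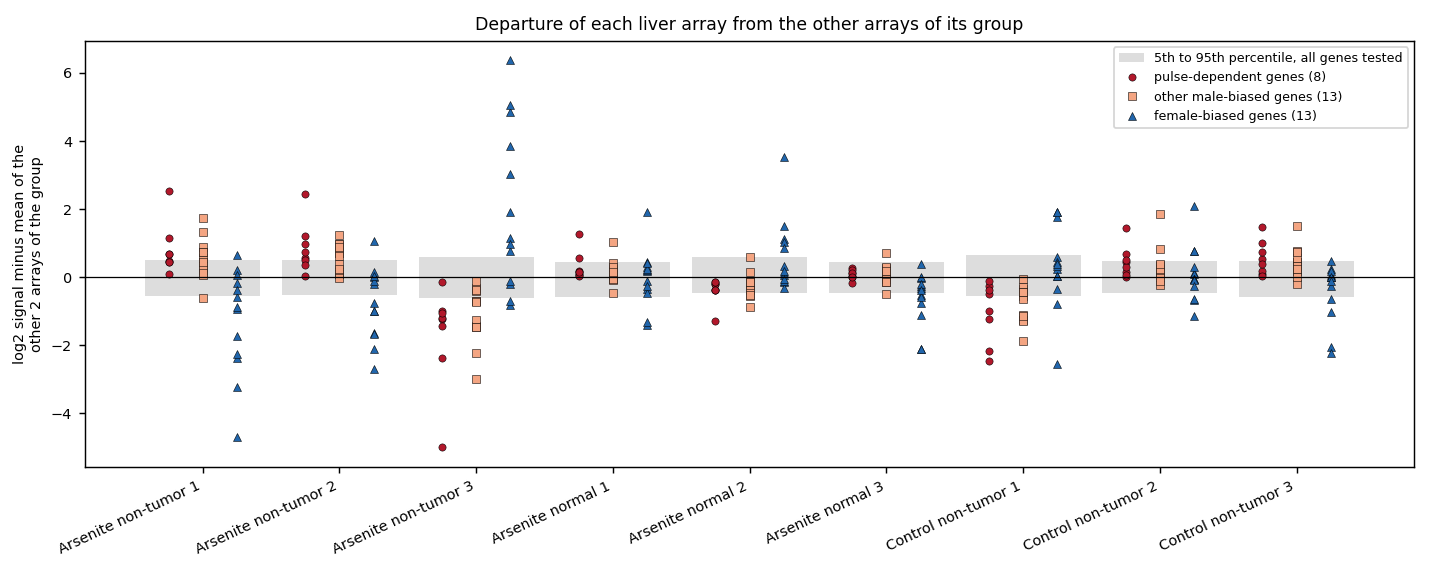
Departure of single genes on each of the 9 liver arrays, as log2 signal minus the mean of the other 2 arrays of the group; circles are the 8 members, squares 13 other male-biased genes, triangles 13 female-biased genes, and the gray band spans the 5th to 95th percentile of all genes tested. On arsenite non-tumor sample 3, control non-tumor sample 1 and normal sample 2 all 8 members lie below 0, and on the first of these female-biased genes reach 6.38 above it.

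Of 15 genes of growth hormone signaling tested, 5 were called lower and 1 higher in tumors than in non-tumor liver, with a median of -0.17. Over all genes 30% were called lower and 17.1% higher, so the count for the list is near the background. Ghr, the growth hormone receptor, was 4.33, 3.75 and 4.16 in tumors and 6.73, 6.59 and 6.56 in non-tumor liver, a difference of -2.55 ± 0.14 (SE; adjusted p = 4.9e-07). Igf1, the growth factor that the hormone induces in liver, fell by 2.17 ± 0.28 (adjusted p = 0.00012), and Igfals, which stabilises circulating IGF1, fell by 4.08 ± 0.39 (adjusted p = 1.7e-05), with a difference of -4.67 without tumor 3. Prlr, the prolactin receptor, was lower, with a log2 difference of -2.29 ± 0.27. Cish and Socs2, the inhibitors induced by STAT5, were not called, and their groups overlapped. Cish read 2.80, 1.69 and -0.105 in tumors and 2.39, 3.11 and 0.18 in non-tumor liver. Socs2 read 0.44, 1.53 and 0.01 in tumors and 1.21, 1.91 and 2.085 in non-tumor liver.

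Of the transducers downstream of the receptor, Stat5b was lower in tumors, with a log2 difference of -0.80 ± 0.18 (SE; adjusted p = 0.004) against non-tumor liver and of -0.48 ± 0.18 (adjusted p = 0.046) against normal liver. The second call was lost in most alternatives, for example without normal sample 1 (adjusted p = 0.17). Its close relative Stat5a differed by -0.08 ± 0.19 and the kinase gene Jak2 by 0.04 ± 0.09 against non-tumor liver, and neither was called.

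Among 15 regulators of liver sex bias tested, 3 were called lower and 3 higher against non-tumor liver, where 30% of all genes were called lower and 17.1% higher, so these counts are near the background. Cebpa, a hepatocyte transcription factor, was lower, with a log2 difference of -0.77 ± 0.15 (SE). Tox, Foxa3 and Trim24 were higher by 2.46 ± 0.51, 1.46 ± 0.33 and 1.32 ± 0.32 log2 units, and Tox was well above background in 1 of 3 non-tumor livers.

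In tumors, the called genes of the male-biased and female-biased lists lay in opposite directions. Both lists were chosen with earlier results of these data known. Of 13 other male-biased genes tested, 11 were called lower against non-tumor liver, where 30% of all genes were, and 0 higher, with a median of -3.60. These 13 include Cyp4a12b, whose signal may be shared with the member Cyp4a12a. The log2 difference was -5.94 ± 0.40 (SE) for Nat8, an acetyltransferase gene, -4.95 ± 0.46 for Mup21, -3.39 ± 0.26 for Nudt7, a peroxisomal coenzyme A hydrolase, and -1.48 ± 0.13 for Ugt2b38. Of 13 female-biased genes tested, 7 were called higher, where 17.1% of all genes were, and 0 lower, with a median of 1.89. The other 6 were not called, and 3 of the 13 lay below 0. Prom1, a membrane glycoprotein also used as a progenitor marker, was higher by 6.61 ± 0.28. Sult2a2, Sult2a1, both sulfotransferases, and Abcd2, a peroxisomal fatty acid transporter, were at least 122.8-fold, 8.90-fold and 6.83-fold higher, with no non-tumor array well above background. The Sult2a2 and Sult2a1 probes also carry accessions of Sult2a5 and Sult2a4.

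Most close relatives of the members were lower as well. Of 36 tested, 27 were called lower and 3 higher against non-tumor liver, where 30% and 17.1% of all genes were, with a median of -1.35. Beside Hsd3b5, Hsd3b2 and Hsd3b6 were lower, with log2 differences of -2.60 ± 0.35 and -2.08 ± 0.21 (SE). Beside Slco1a1, the transporters Slco1a4 and Slco1b2 were lower, with differences of -3.46 ± 0.51 and -3.81 ± 0.80, and Slco1a4 was well above background in 1 of 3 tumors. The Slco1b2 value was -4.97 without tumor 1 and -2.76 without tumor 2, and that of Slco1a4 -4.23 without tumor 3. Beside Mup20, the probes of Mup5, Mup6 and Mup2 were lower, with differences of -5.25 ± 0.41, -5.65 ± 0.48 and -5.38 ± 0.47, and those of Mup6 and Mup2 also carry accessions of Mup4 and Mup1. Without tumor 3 these were -5.87, -6.30 and -6.09. Beside Cyp2d9, Cyp2d13 and Cyp2d10 were lower, with differences of -1.90 ± 0.13 and -0.85 ± 0.16. Beside Ugt2b1, Ugt2b37 was lower, with a difference of -1.64 ± 0.14. The opposite was seen beside Elovl3, where another elongase gene, Elovl7, was at least 20.4-fold higher in tumors.

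**Figure D4:**
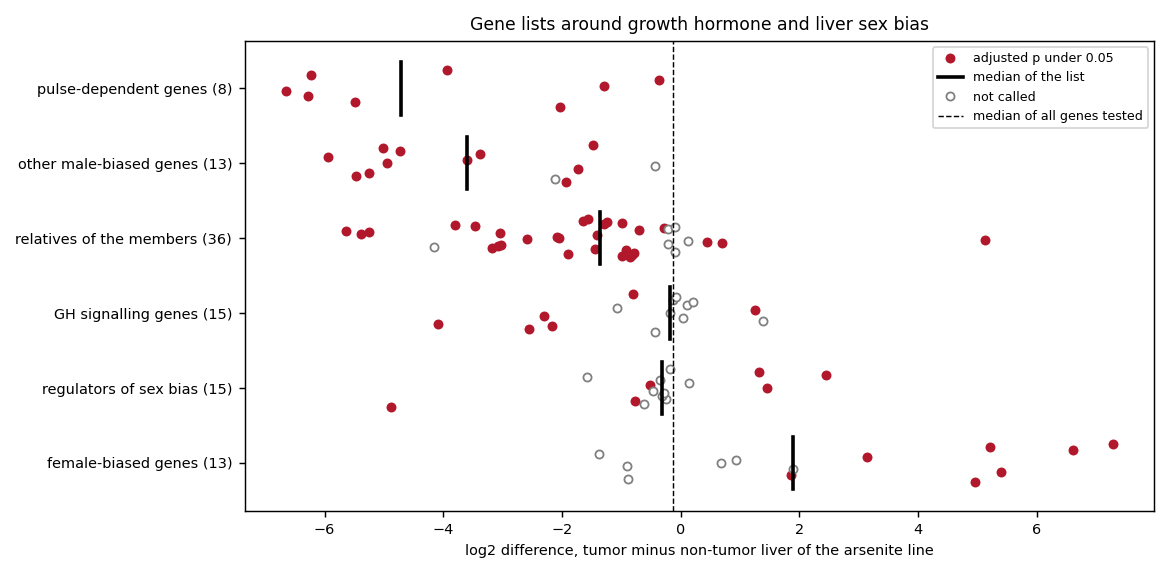
Log2 difference between tumors and non-tumor liver of the arsenite line for every tested gene of 6 lists, with the number of genes in brackets; red points were called, open points were not, black bars are list medians and the dashed line is the median of all genes tested (-0.13). The list medians run from -4.71 for the members and -3.60 for other male-biased genes to 1.89 for female-biased genes.

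Marker genes of cell types were also compared between tumors and non-tumor liver, where 30% of all genes were called lower and 17.1% higher. Sums of signal are in units of the array's 75th percentile and are led by the brightest genes, so the calls are given beside them, and the genes named here were chosen after their values were seen. Summed signals of 9 of 10 listed hepatocyte markers were 3240.5 to 3949.6 in tumors and 3490.0 to 4080.5 in non-tumor liver, and these ranges overlap, yet 5 of the 9 were called lower and 1 higher. The log2 differences of the metabolic enzyme genes G6pc, Tat, Cps1 and Pck1 were -3.03 ± 0.55, -2.63 ± 0.29, -2.13 ± 0.37 and -1.94 ± 0.34 (SE), so part of the hepatocyte list was lower together with the members.

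The sums of 7 of 7 macrophage markers were 39.0 to 74.4 in tumors and 118.6 to 158.9 in non-tumor liver, with 5 called lower and 0 higher. Those of 7 of 7 endothelial markers were 55.3 to 75.5 in tumors and 93.7 to 113.8 in non-tumor liver. That list went both ways, with 2 called lower, 1 higher and a median of 0.02. Over all genes 30% were called lower and 17.1% higher, so the endothelial counts are near the background. Among the endothelial markers Stab2 differed by -1.02 ± 0.16 and Lyve1 by 1.70 ± 0.36 (SE). The Stab2 call was lost with the mean of all probes (-0.30, adjusted p = 0.10). The Lyve1 call was lost with the replicate block in the 2 groups (adjusted p = 0.062). The sums of 8 of 8 stellate cell and fibroblast markers were 20.4 to 29.1 in tumors and 68.3 to 74.5 in non-tumor liver, but 4 were called lower and 3 higher, with a median of 0.22. Dcn, the brightest of these, differed by -2.06 ± 0.11, and Col1a1 by 2.11 ± 0.37. The sums of 6 of 8 lymphocyte markers were 131.9 to 179.7 in tumors and 32.2 to 59.8 in non-tumor liver, with 2 called higher and 1 lower, and Cd8a and Ms4a1 not past the filter. Cd4, the brightest of these, had levels of 6.92, 7.38 and 6.93 in tumors and 5.51, 5.62 and 4.47 in non-tumor liver and makes up most of the sum. The sums of 4 of 6 bile duct markers were 1.84 to 2.63 in tumors and 1.61 to 2.75 in non-tumor liver, with none called and Krt7 and Epcam not past the filter. The part of these differences in the members' values was not tested.

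Outside the members, the genes nearest in pattern were ranked by the root mean square difference between log2 profiles over the 12 arrays, each centered on its mean. Since tumors differ most, this measure mainly ranks genes by their drop in tumors. Nearest to the mean profile of the 8 members were Acsm2, an acyl-CoA synthetase gene, at 0.364, Nat8f5 at 0.394, Ybx2 at 0.412, Lipn at 0.416 and Vmn1r214 at 0.448, against a median of 1.85 over all genes. Their differences between tumors and non-tumor liver were -3.98, -3.70, -4.85, -3.60 and -3.66. The size of these drops depends on the processing. The smallest drops among the alternatives were -1.24, -1.28, -2.25, -1.11 and -0.99, in the same order. Among single members the nearest genes were Cyp4a12b for Cyp4a12a (0.070) and for Hsd3b5 (0.801), Sult5a1 for Slco1a1 (0.362), Slc22a7, an organic anion transporter, for Ugt2b1 (0.244), Serpina4-ps1 for Elovl3 (1.22), Fndc5 for Mup20 (0.302), the complement gene C8b for Cyp2d9 (0.249) and the retinol carrier Rbp4 for Serpina1e (0.037). The Cyp4a12a probe is annotated with Cyp4a12b too, so the nearness of these genes may come from a shared signal.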

How the data were processed

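The deposited scanner files give, per the file headers, 1 background-subtracted intensity (processed signal) per spot, in arbitrary units. Per the file headers the software was Agilent Feature Extraction 10.7.3.1, and per the submitters' processing notes 12.0.3.1. The deposited value table holds a ratio, checked to be that signal over the 75th percentile of the array's spots. It served as an alternative.

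From each array's 59305 non-control spots, log2 signals were scaled by subtracting that array's 75th percentile and averaged over the spots of a probe. Probes were kept (24148) where some group had all 3 of its arrays well above background, and the brightest stood for its gene (18104 genes). Positions are on mm9.

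A single fit of 12 arrays (limma 3.58.1, R 4.3.3, lmFit and eBayes, 2-sided) gave all comparisons, with Benjamini-Hochberg adjustment over all genes. The script was tested on simulated data. Where a probe was not well above background on any array of the lower group, the fold is a bound against the dimmest signal well above background. The number of arrays limits the precision. Equal replicate numbers of tumors and non-tumor liver had correlated residuals (0.145, 0.140 and 0.230), which meets the rule set for treating them as pairs in that comparison alone. Members and gene lists were chosen with earlier results of these data known. Named genes are the members, the regulators of the pathway, up to 4 called genes of smallest p per list, relatives set beside a member, and the genes of nearest profile; some genes of the lists are not reported here. Alternatives were other background corrections, scalings, filters, probe summaries, fits, blocks, array weights and arrays left out.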

Additional observations from a re-analysis of the deposited data

How the results depend on the processing

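Of the 199 values obtained for the 8 members under the alternatives of tumors against non-tumor liver, 184 kept their direction and their call and 15 kept only the direction. Of those 15, 10 belong to Mup20 and 5 to Serpina1e. Against normal liver 196 of 199 did, and the 3 others belong to Serpina1e. For Mup20, adjusted p was 0.054 with quantile normalization, 0.055 with the percentile over detected probes, 0.065 with no filter and 0.060 with the 2 groups alone. For Serpina1e against non-tumor liver it was 0.061 with normexp, 0.053 with a median shift and 0.079 with the percentile over detected probes. Against normal liver it was 0.084 with quantile normalization, 0.21 with a median shift and 0.056 with the replicate block in the 2 groups. Between 7 and 8 members stayed called against non-tumor liver with 1 array left out, and 8 did against normal liver. The replicate block changed no call of a member other than those given. With the block in the 2 groups alone, tumors against non-tumor liver, adjusted p was larger than in the fit of 12 arrays. It was 0.0055 for Hsd3b5, 0.011 for Slco1a1, 0.0099 for Cyp4a12a, 0.0076 for Ugt2b1, 0.018 for Elovl3 and 0.01 for Cyp2d9. Of the other 56 genes named, 49 kept call and direction in all alternatives against non-tumor liver and 49 against normal liver.

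Other scalings moved the median of all genes between tumors and non-tumor liver from -0.13 to -0.20 (median shift), -0.04 (quantile) and 0.03 (percentile over detected probes). Among genes called there, 36.4% were higher, against 47.7% with quantile normalization and 53.5% with the percentile over detected probes. Between tumors and normal liver 35.7% were higher, against 48.3%, 50.7% and, with a median shift, 59.5%. With no filter, 14219 genes were called there in place of 8712.

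Between livers, no member was called under any alternative run. Genes called between non-tumor and normal liver numbered 0, but 1 with a median shift, 1 with probes detected on all 12 arrays, 5 with array weights and 0 to 1 with 1 array left out. Between the arsenite and control lines 1 gene was called, but 0 with normexp, 3 with a median shift, 6 with no filter, 0 with probes detected on all 12 arrays, 4 with the 2 groups alone, 0 with those and the replicate block, and 0 to 6 with 1 array left out. Leaving out arsenite non-tumor sample 3 and control non-tumor sample 1 together, an alternative chosen after seeing the data, gave 0. Non-tumor minus normal liver turned sign to 0.187 for Hsd3b5, 0.138 for Cyp4a12a, 0.250 for Ugt2b1 and 0.768 for Elovl3 with both left out, and to 0.207 for Ugt2b1 and 0.154 for Serpina1e with a median shift. Arsenite minus control turned sign with both left out for Hsd3b5 (0.064), Slco1a1 (0.032), Cyp4a12a (0.154), Elovl3 (0.293) and Cyp2d9 (0.056). With a median shift it did so for Hsd3b5 (0.235), Slco1a1 (0.192), Cyp4a12a (0.008), Mup20 (0.095), Cyp2d9 (0.078) and Serpina1e (0.139), with normexp for Hsd3b5 (0.073), and with quantile normalization it was 0.0 for Serpina1e. With 1 array left out, the range between the lines was -0.729 to 0.783 for Hsd3b5, -0.379 to 0.358 for Slco1a1, -0.561 to 0.238 for Cyp4a12a, -0.101 to 0.396 for Ugt2b1, -1.402 to 1.110 for Elovl3, -0.562 to 0.246 for Mup20 and -0.395 to 0.185 for Cyp2d9. Between non-tumor and normal liver it was -1.011 to 0.187 for Hsd3b5, -0.662 to 0.138 for Cyp4a12a, -0.247 to 0.250 for Ugt2b1 and -1.744 to 0.768 for Elovl3. In tumors minus non-tumor liver, Jak2 turned to -0.028 with a median shift and ranged from -0.0 to 0.106 with 1 array left out (-0.0 with both left out). Stat5a turned to 0.080 with the percentile over detected probes. Alb turned to 0.024 with normexp and 0.109 with that percentile, and ranged from -0.096 to 0.014 with 1 array left out. In tumors minus normal liver, Stat5a turned to 0.104 with a median shift and 0.031 with that percentile and ranged from -0.262 to 0.039 with 1 array left out, and Alb to 0.056 with a median shift. The cause of these changes was not tested.

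The slide as a block was not run, since a slide other than the shared one holds a single group. Slco1a1 has no value among probes detected on all 12 arrays, because tumor 1 was not well above background.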
